A study of Homo sapiens with 16 samples.

Results

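This account follows the neurons of human brain organoids between 2 ages, by setting the open chromatin of neurons at day 90 against that of neurons at day 60. The members are the 4 broad-peak lists of dTomato-positive cells at those ages, 2 libraries a day, out of 16 libraries in the series. The organoids were enriched in dorsal telencephalon and derive from the human embryonic stem cell line H9, labelled as wild type. All 16 libraries come from the same reporter line. One SOX2 allele carries P2A-EGFP in place of its stop codon and marks progenitors, and dTomato under the human SYN1 promoter at the AAVS1 safe-harbour site marks neurons. The other libraries, used here only for comparison, are neurons of days 40 and 120 and EGFP-positive progenitors of days 40, 60, 90 and 120, again 2 libraries each. Whether a day's 2 libraries came from separate organoid cultures, and whether the line is 1 clone, is not stated in the labels, so that p-values measure only the spread between these libraries.

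ATAC-seq uses the Tn5 transposase, which cuts and tags DNA where chromatin is open, so that promoters and enhancers in use appear as peaks of reads. A newborn cortical neuron first carries open chromatin at genes for migration and axon growth. As it matures it gains open elements, most of them far from promoters, around genes for synapses, receptors and ion channels. Because the SYN1 promoter drives the sort, dTomato marks cells that have already begun to express a synaptic vesicle gene. In sorted pools a smaller share of cells with an open element and a weaker opening in every cell cannot be told apart.

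The day 90 lists were alike in length, with 110879 and 110390 peaks covering 80.0 and 80.3 Mb on chromosomes 1 to 22 and X. The day 60 lists held 115950 and 80345 peaks, covering 83.4 and 54.8 Mb. Day 60 replicate 2 therefore stood apart. The library number that its deposited list carries falls among those of the day 90 libraries, neuron and progenitor. The labelled day was followed throughout, and whether the number marks a shared batch or a mislabelled library was not tested. Every day 60 value below rests in part on this library. Of the 4 lists it had the fewest peaks and the smallest share of peaks with a −log10 q of at least 5, at 33.6%, against 55.1 and 50.4% at day 90 and 49.3% in day 60 replicate 1. A larger share of its peaks lay within 1 kb of a gene start, at 15.7%, against 12.1 and 11.8% at day 90 and 11.6% in day 60 replicate 1. Covered sequence averaged 80.2 ± 0.252 Mb at day 90 and 69.1 ± 20.2 Mb at day 60 (SD, n = 2 each), a difference within the spread of the day 60 libraries (exact permutation test, two-sided, p = 1.0, the smallest possible being 0.333). The numbers of reads behind the lists are unknown, so the effect of depth on each list could not be measured, and the main counts below are also given with lists cut to equal length and without the short list.

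Starts of neuron and of progenitor marker genes were open in the sorted neurons. A peak lay at the start of 14 of 16 pan-neuronal genes in all 4 libraries, and also at 14 of 18 radial glia genes, so presence at a start does not separate the populations. SYN1, whose promoter drives dTomato, had 2.62 and 3.69 kb of scaled peak coverage at day 90 and 3.18 and 3.503 kb at day 60 over the gene and 20 kb on either side. Scaled here means multiplied by the mean total over the 16 libraries and divided by the library's own total. SOX2, the progenitor transcription factor, had 8.86 and 3.76 kb at day 90 and 4.59 and 6.88 kb at day 60 in neurons. In progenitors it had 12.1 and 14.4 kb at day 90 and 12.1 and 9.99 kb at day 60, above every one of the 4 neuron values. PPP1R12C, the gene that holds AAVS1, had 4.30 and 2.78 kb at day 90 and 2.85 and 4.61 kb at day 60. For all 3 genes the 2 days overlapped.

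The share of covered sequence that 2 lists had in common did not sort the 4 libraries by day. The overlap divided by the union of covered bases was 0.539 between the day 90 libraries and 0.440 between the day 60 libraries. Between days it was highest, at 0.536, for day 90 replicate 2 with day 60 replicate 1, and lowest, at 0.410, for day 90 replicate 1 with day 60 replicate 2. With every list cut to its 80345 strongest peaks, the value for day 90 replicate 2 with day 60 replicate 1 was 0.581, above the 0.576 of the day 90 pair and the 0.494 of the day 60 pair. Day 90 replicate 1 also shared more with progenitors. Its overlap with the 2 progenitor lists of day 90 was 0.430 and 0.435, against 0.355 and 0.368 for day 90 replicate 2. The part of this in the differences below was not tested.

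Merging the 4 lists gave 171161 regions, of which 54364 were shared by the 4 libraries and 63163 came from a single one. More regions were found at day 90 alone than at day 60 alone. A peak in both day 90 libraries and in neither day 60 library was found in 10959 regions, or 6.4%, here called day 90-only regions. The mirror pattern was found in 2909 regions, or 1.7%, called day 60-only. The exact permutation test of 2 libraries against 2 cannot go below 0.333 for presence in a region, so these counts are given as descriptions. In lists of equal number, 8014 regions (6.42%) were day 90-only and 4218 (3.38%) were day 60-only out of 124777.

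The order of the 2 counts rested on day 60 replicate 2 and on how its shortness was met. With lists cut to the same covered bases, 5351 regions were day 90-only and 5686 day 60-only. Without day 60 replicate 2, with 1 library left for day 60, there were 12646 and 24548. With lists of equal number as well there were 13203 and 20591. Leaving out day 90 replicate 1, day 90 replicate 2 or day 60 replicate 1 kept the order, with 22783, 31775 and 26048 day 90-only regions against 4771, 9158 and 12767 day 60-only regions. Among peaks with a −log10 q of at least 5, called strong peaks below, there were 7794 and 663. The counts alone therefore do not say that neurons gained more elements than they lost.

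**Figure D1:**
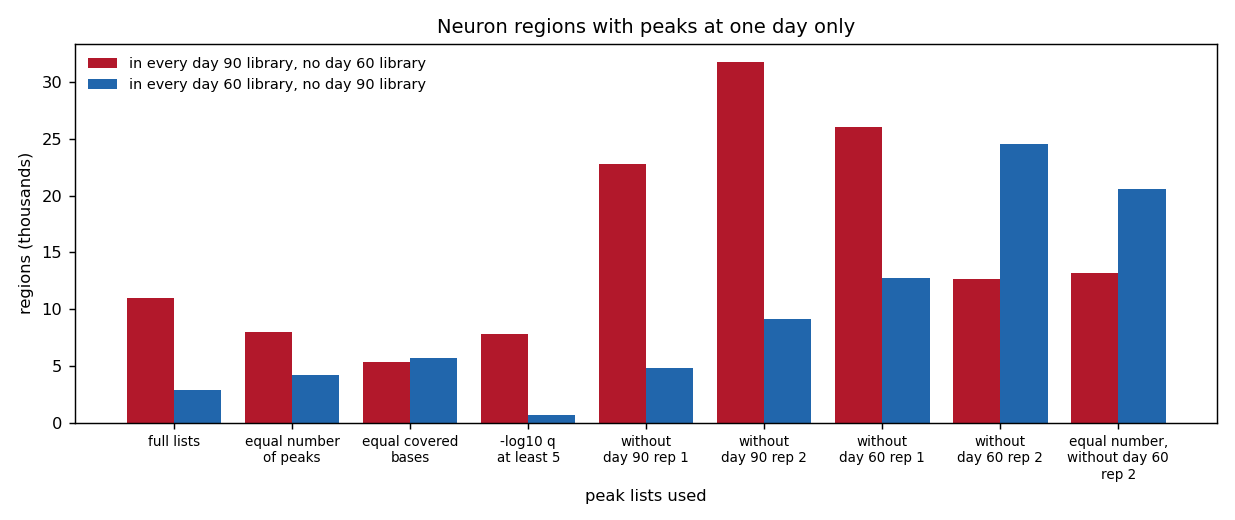
Number of regions (vertical axis, as 1000 regions a unit) with a peak in every day 90 neuron library and no day 60 neuron library (red) or the reverse (blue), for 9 choices of peak lists along the horizontal axis. The red bar is higher in the full lists (10959 against 2909) and the blue bar is higher without day 60 replicate 2 (12646 against 24548).

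The libraries of other ages took no part in choosing these regions. Day 90-only regions were mostly still open in day 120 neurons, at 68.9 and 64.5% in the 2 libraries, although these lists are among the shorter ones with 63.0 and 55.7 Mb. Over all 171161 regions the day 120 shares were 47.8 and 47.0%. Few day 60-only regions held a peak by then, at 8.56 and 9.14%. Both day 120 libraries held a peak in 57.1% of day 90-only regions and in 2.54% of day 60-only regions, a pattern not counted over all regions.

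In day 40 neurons day 60-only regions had the higher shares. Day 90-only regions had a peak in 31.1 and 26.2% and day 60-only regions in 59.4 and 40.8%, with 54.1 and 47.3% over all regions. Of the day 90-only regions, 37.1% were open in both day 120 libraries and in neither day 40 library, and 4.70% had the reverse pattern. Of the day 60-only regions, 0.413% and 29.3% had these patterns, which were not counted over all regions.

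At day 120, day 90-only regions kept the higher share under each of the 9 choices of lists tried, while at day 40 the order depended on the choice. Chosen without day 60 replicate 2, day 90-only regions had peaks in 68.0 and 64.7% at day 120 and day 60-only regions in 4.78 and 5.25%. Chosen in lists of equal covered bases, where the counts turned round, the shares were 89.7 and 87.6% against 31.3 and 30.8%. With only 1 day 90 library, day 90-only regions had lower shares, of 38.9 and 35.0% without day 90 replicate 1 where all regions had 49.1 and 47.7%, and of 48.6 and 49.3% without day 90 replicate 2, where all regions had 50.4 and 49.8%. At day 40, day 60-only regions chosen without day 60 replicate 2 had peaks in 31.2 and 25.5%, below the 36.2 and 30.5% of day 90-only regions. Without day 60 replicate 1 the day 40 shares were 47.2 and 41.1% of day 90-only and 27.05 and 20.6% of day 60-only regions. The day 40 order thus turned when either day 60 library was left out.

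**Figure D2:**
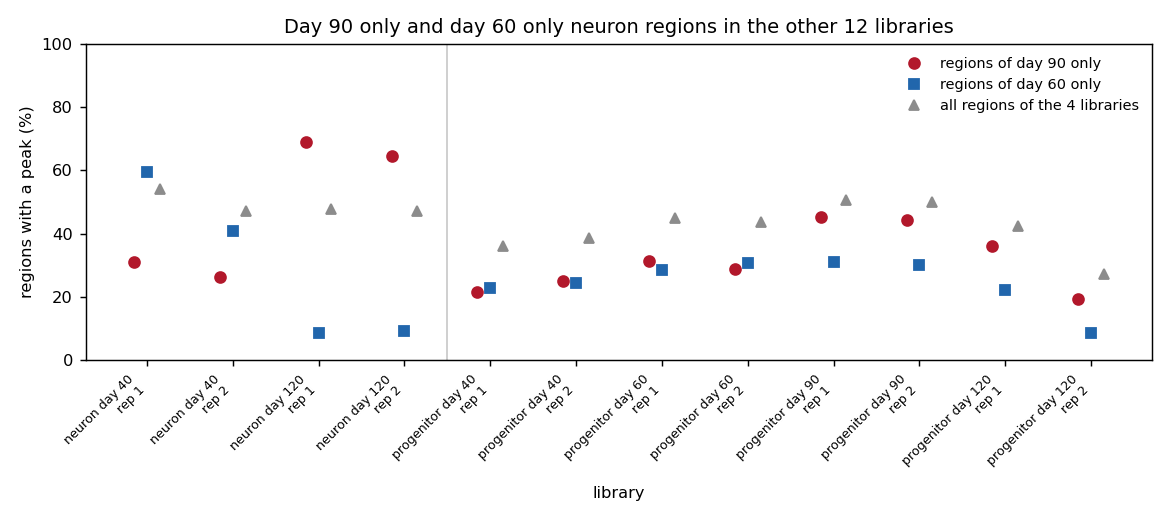
Share of regions (%) with a peak in each of the 12 libraries that took no part in choosing them, for day 90-only regions (red circles), day 60-only regions (blue squares) and all regions of the 4 neuron libraries (grey triangles). In the 2 day 120 neuron libraries the red points stand at 68.9 and 64.5% and the blue points at 8.56 and 9.14%, and in day 40 neurons the blue points are the higher ones.

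Progenitors of the same age shared part of the day 90-only regions. Peaks lay in 45.2 and 44.3% of them in day 90 progenitors and in 31.3 and 28.9% in day 60 progenitors, with 50.8, 50.04, 45.03 and 43.7% over all regions. Day 60-only regions stood at 31.1 and 30.0% in day 90 progenitors and at 28.5 and 30.7% in day 60 progenitors. No progenitor library had a peak in 43.8% of day 90-only and 47.1% of day 60-only regions. No other library of the series, progenitors of the same day included, had a peak in 11.2% of day 90-only and 22.7% of day 60-only regions. Neither of these patterns of absence was counted over all regions.

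Regions of one day were narrower and lay farther from gene starts than regions found in all 4 libraries. Their median width was 581 bases at day 90 and 527 bases at day 60, against 1097 bases for regions found in all 4 libraries. A gene start lay within 1 kb of 1.75% of day 90-only, 1.86% of day 60-only and 21.8% of common regions. Inside genes away from starts lay 45.6% of day 90-only and 53.7% of day 60-only regions, and outside genes 52.7 and 44.5%. The median distance to the nearest start was 98.5 kb for day 90-only regions, 57.1 kb for day 60-only regions and 34.0 kb for common ones. The remaining 102929 regions, of other patterns, had a median width of 430 bases. Of these, 2.45% lay within 1 kb of a start, and their median distance was 55.6 kb. Between chromosomes the day 90-only share ran from 2.51% on gene-dense chromosome 19 to 7.99% on chromosome 4.

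The strongest day 90-only regions were ranked by where their −log10 q stood within each list, and the 8 that lead are near IGSF11, CD99, DCTD, RBFOX2, OSBPL8, NKAIN2, LGSN and SIK2. The fold enrichments that follow are the authors' own peak values. A region of 547 bases inside IGSF11, an adhesion protein of synapses, lay at chr3:119013962-119014508 in hg38 with a fold of 6.15 and 5.68 in the day 90 libraries. A region of 616 bases inside RBFOX2, a splicing factor of neurons and other cells, lay at chr22:35985964-35986579 with a fold of 7.60 and 7.26. A region of 1050 bases inside NKAIN2, a membrane partner of the sodium pump, lay at chr6:123908531-123909580 with a fold of 7.33 and 8.62. By their choice none had a peak at day 60, while CD99, DCTD, RBFOX2 and NKAIN2 had one in both day 40 libraries and IGSF11 in 1 of them. Among progenitor libraries the regions of RBFOX2 and CD99 had a peak in 8 of 8. Those of DCTD had one in 6, IGSF11 and NKAIN2 in 5, OSBPL8 in 3 and LGSN in 1.

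All 8 of these regions had a peak in both day 120 neuron libraries. SIK2, a kinase that restrains CREB co-activators, had its region 5640 bases outside the gene at chr11:111596284-111596809, and this region was the one with no peak in any progenitor or day 40 library. OSBPL8, a lipid transfer protein, and LGSN, a lens protein related to glutamine synthetase, also lacked peaks at day 40. Their folds were 7.996 and 8.30 for OSBPL8 and 6.86 and 6.01 for LGSN.

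The genes nearest to the 8 leading day 60-only regions were GOLGA8H, TBCK, FIGN, METTL2A, CCER1, CTNNA2, ID4 and PCDH15. Nearest does not mean close, since the regions assigned to CTNNA2 and PCDH15 lay 1758026 and 390996 bases outside these genes. A peak appeared in both day 120 libraries in none of these 8 regions, and in 1 day 120 library at FIGN, METTL2A and CCER1. The region assigned to ID4, an inhibitor of basic helix-loop-helix factors in progenitors, lay 196922 bases away at chr6:19639857-19640448 with a fold of 5.98 and 5.42. That of FIGN, a microtubule-severing enzyme, lay 190479 bases away at chr2:163411785-163412132 with 7.85 and 5.06. GOLGA8H belongs to a family of near-identical copies on chromosome 15, so reads there may come from another copy.

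Few gene starts had a peak at one day only. A peak within 1 kb of the start in both day 90 libraries and neither day 60 library was found at 164 of 19974 protein-coding genes (0.821%), and the reverse at 45 (0.225%). In lists of equal number these were 106 (0.531%) and 83 (0.416%), and without day 60 replicate 2 they were 283 and 279. With equal covered bases they were 62 and 147. Both in the full lists and in those of equal number, 59 starts were day 90-only and 15 were day 60-only.

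The genes named here from the 59 starts were picked after their values were seen and stand for no theme. They are NFIX, a nuclear factor of late neural differentiation, WWTR1, the Hippo pathway co-activator also called TAZ, and SMAD3, a carrier of TGF-β signals. Further ones are PALM and DPYSL4, which act in neurite growth, PRICKLE2, a planar polarity protein, LDHA, the enzyme that makes lactate, and the posterior genes HOXA10 and HOXB5. From the 15 day 60-only starts, named in the same way, are KRT20, an epithelial keratin, GRHL3, an epithelial transcription factor, DMBT1, F5, a clotting factor, and RAMP1, a partner of the calcitonin receptor. Among the 449 listed genes, 10 starts were day 90-only in the full lists and 0 day 60-only, beside 0.821 and 0.225% of all genes, and of these 10 only NFIX and LDHA were so in lists of equal number as well.

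The stretch before the start is shown for 3 of the day 90-only starts and 1 of the day 60-only starts, chosen because the peaks of that day overlap these bases and the other day has none there. The sequences are from RefSeq on GRCh38.p14, on the gene's strand, and end at the base before the start. Capitals mark matches on either strand to any of 7 motifs, namely the NFI motif TTGGCA, the E-boxes CAGATG and CAGCTG, the cAMP response element TGACGTCA, the AP-1 site TGANTCA, the nuclear receptor motif AGGTCA and the GC box GGGCGG.
WWTR1: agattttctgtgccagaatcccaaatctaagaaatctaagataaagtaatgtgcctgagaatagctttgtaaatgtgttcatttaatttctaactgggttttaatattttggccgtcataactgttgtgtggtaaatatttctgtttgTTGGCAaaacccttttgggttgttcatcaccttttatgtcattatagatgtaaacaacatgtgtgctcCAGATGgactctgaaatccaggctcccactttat
PCBP4: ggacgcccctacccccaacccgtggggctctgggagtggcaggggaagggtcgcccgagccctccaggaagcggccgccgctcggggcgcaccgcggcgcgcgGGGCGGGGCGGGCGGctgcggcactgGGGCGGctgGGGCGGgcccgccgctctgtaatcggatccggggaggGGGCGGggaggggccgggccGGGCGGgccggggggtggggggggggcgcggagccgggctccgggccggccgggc
TRPM4: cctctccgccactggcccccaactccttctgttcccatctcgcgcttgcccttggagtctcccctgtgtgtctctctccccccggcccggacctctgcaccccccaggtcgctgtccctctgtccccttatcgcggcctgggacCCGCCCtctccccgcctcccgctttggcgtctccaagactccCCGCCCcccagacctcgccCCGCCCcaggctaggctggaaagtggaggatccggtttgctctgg
DMBT1: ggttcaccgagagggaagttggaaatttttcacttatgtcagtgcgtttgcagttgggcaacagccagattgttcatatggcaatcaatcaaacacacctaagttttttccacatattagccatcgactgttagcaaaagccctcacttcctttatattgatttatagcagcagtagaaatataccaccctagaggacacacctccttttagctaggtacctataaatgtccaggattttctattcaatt
The WWTR1 stretch lies at chr3:149703274-149703523, the PCBP4 stretch at chr3:51967467-51967716, the TRPM4 stretch at chr19:49157542-49157791 and the DMBT1 stretch at chr10:122560504-122560753.

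Peaks covered 210 and 250 of the 250 bases at WWTR1 in the day 90 libraries and none at day 60. At PCBP4, an RNA-binding protein, they covered 250 and 250 bases at day 90, and at TRPM4, a calcium-activated cation channel, 250 and 236. At DMBT1, a secreted scavenger protein, day 90 peaks covered none and day 60 peaks all 250 in both libraries. The WWTR1 stretch has 35.2% G and C and holds 1 NFI motif and 1 CAGATG, the PCBP4 stretch has 84.8% and holds 7 GC boxes, the TRPM4 stretch has 69.2% and holds 3, and the DMBT1 stretch has 39.6% and no match.

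Over all starts with a RefSeq promoter, the 121 day 90-only ones had a median of 62.0% G and C and a ratio of observed to expected CpG of 0.618. The 31 day 60-only ones had 57.6% and 0.311. Starts open in all 4 libraries, 10491 in number, had 65.6% and 0.833, and the 3841 open in none had 49.6% and 0.231. A GC box was present in 53.7% of day 90-only, 38.7% of day 60-only and 56.0% of all 15812 promoters. The NFI motif was present in 6.61% of day 90-only, 6.45% of day 60-only and 9.26% of all promoters. These are descriptions of letters and not of factor binding.

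Coverage over whole gene loci was tested with limma, an empirical Bayes linear model, on log2 of scaled covered bases plus 500. A locus is the gene and 20 kb on either side, 18755 loci were tested, and p-values were adjusted over all of them by the Benjamini-Hochberg method at a threshold of 0.05. At day 90, 4 loci were higher (0.0213%) and 0 were lower (0.0%). At an unadjusted p under 0.05 there were 648 higher (3.46%) and 1163 lower (6.2%). The scaled bases of the 2 days did not overlap at 2087 loci with the higher values at day 90 (11.1%) and at 5076 with the lower values there (27.1%). The median difference over all loci was −0.12, and it was −0.04 without day 60 replicate 2, so a value near −0.12 is the common level and not a change of its own.

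CNGB3, a subunit of the cyclic-nucleotide channel of cone photoreceptors, was one of the 4. It had 7.53 and 8.71 kb at day 90 and 2.21 and 1.84 kb at day 60, with no overlap. The log2 difference was 1.77 ± 0.21 (SE, limma adjusted p = 0.00357). Its gene lies at chr8:86574179-86743634. Day 60 was the low age in neurons, because day 40 had 7.94 and 5.73 kb and day 120 had 7.91 and 7.98 kb. In progenitors it had 3.98 and 4.87 kb at day 90 and 3.96 and 4.05 kb at day 60.

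NKAIN3, a membrane protein that binds the sodium pump's beta subunit, followed the same course. It had 27.2 and 23.6 kb at day 90 and 11.2 and 12.2 kb at day 60, a log2 difference of 1.08 ± 0.14 (SE, limma adjusted p = 0.00823). Its locus at chr8:62248854-62999652 held 11 day 90-only and 0 day 60-only regions out of 52. Day 40 neurons had 22.5 and 20.8 kb and day 120 neurons 25.7 and 23.3 kb, so that both day 60 libraries were the lowest neuron values. Progenitors had higher values than day 90 neurons at that age, with 35.0 and 32.8 kb, and 32.6 and 28.4 kb at day 60.

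PID1, an adaptor protein that dampens insulin signalling, moved in another way. It had 16.8 and 11.8 kb at day 90 and 4.77 and 5.93 kb at day 60, a log2 difference of 1.33 ± 0.21 (SE, limma adjusted p = 0.0410). Day 40 neurons were as low as day 60 ones, with 5.15 and 6.31 kb, and day 120 neurons had 17.8 and 18.7 kb. The gene lies at chr2:229023973-229271287. Progenitors showed values of the same order, with 17.8 and 14.4 kb at day 90 and 10.3 and 6.85 kb at day 60, a difference of 0.89 that did not pass (limma adjusted p = 0.551).

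HCAR3, a receptor for hydroxylated fatty acids, was the fourth locus, small and outside the rule for naming loci. It had 2.87 and 3.05 kb at day 90 and 0.481 and 0 kb at day 60 (log2 difference 2.30 ± 0.37, SE, limma adjusted p = 0.0436). Day 40 neurons had 0 kb in both libraries and day 120 neurons 2.43 and 2.65 kb. The gene lies at chr12:122714756-122716811, and its window overlaps that of HCAR2, a near-identical copy, so reads cannot be assigned to one receptor with certainty. With 1 day 60 library at 0 kb, the size of this difference depends on the 500 bases added. The difference between neurons and progenitors in the change from day 60 to day 90 did not pass for any of the 4 loci, with an interaction of 1.65 and an adjusted p of 0.675 for CNGB3 as the lowest. All 4 calls ended without day 60 replicate 2 and again without day 90 replicate 1. Without day 60 replicate 2, the limma adjusted p was 0.0591 for CNGB3, 0.0591 for NKAIN3, 0.122 for PID1 and 0.251 for HCAR3. Without day 90 replicate 1 they were 0.0589 for CNGB3, 0.301 for NKAIN3, 0.363 for PID1 and 0.343 for HCAR3. Without day 90 replicate 2 they were 0.0560 for CNGB3 and 0.114 for HCAR3, and without day 60 replicate 1 it was 0.0556 for PID1.

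**Figure D3:**
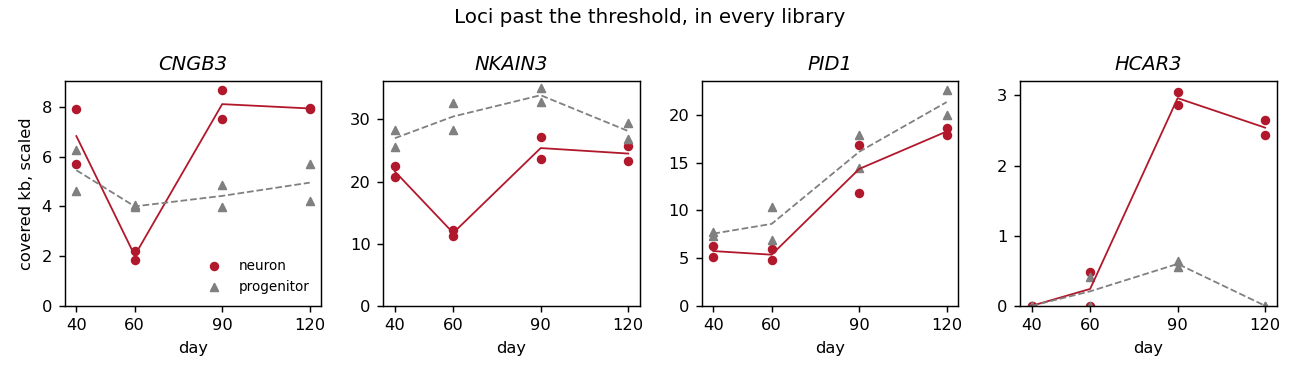
Scaled peak coverage (kb, vertical axes) of the 4 loci past the threshold against day (horizontal axes), with neurons as red circles, progenitors as grey triangles and lines through the means of 2 libraries. CNGB3 and NKAIN3 neuron values dip at day 60, while PID1 and HCAR3 stay low at days 40 and 60 and are higher at days 90 and 120.

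With every list cut to 67977 peaks, the length of the shortest of the 16, limma placed 44 loci higher (0.239%) and 28 lower (0.152%) at day 90. At an unadjusted p under 0.05 the shares were 4.73% higher and 6.8% lower. CNGB3, NKAIN3, PID1 and HCAR3 were among the 44, with adjusted p-values of 0.000558, 0.0323, 0.00616 and 0.000558. The interaction with progenitors then passed at 6 loci, CNGB3 and HCAR3 among them with a limma adjusted p of 0.0225. Neighbouring loci that share peaks count separately in these numbers. Among the 6 were HCAR2 beside HCAR3, and GIMAP4 and LOC107986860, which had the same covered bases. HCAR2, the niacin and ketone-body receptor, covered 2.20 and 1.93 kb at day 90 and 0 kb in both day 60 libraries in these lists. IL1RAPL1, a synaptic adhesion protein linked to intellectual disability, rose by 1.19 ± 0.21 (SE, limma adjusted p = 0.0352) and TAFA1, a secreted brain protein, by 1.03 ± 0.18 (adjusted p = 0.0369). CHLSN, which encodes a secreted regulator of cholesterol, was lower by a log2 difference of −0.97 ± 0.17 (adjusted p = 0.0417). Other calls in the cut lists had little or the opposite difference in the full lists. ZNF516 was at −0.09 in the full lists and 0.76 in the cut ones, and UPK3B at 0.03 and −1.87. CRYGC, called lower, covered 1.56 and 1.82 kb at day 90 in the full lists and 0 kb in both libraries when cut. Without day 60 replicate 2, lists of equal number gave 101 loci higher and 24 lower.

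In the full lists the loci next in rank did not pass. IL1RAPL1 had 20.6 and 16.5 kb at day 90 and 6.34 and 9.27 kb at day 60 (log2 difference 1.21 ± 0.23, limma adjusted p = 0.0642). It stood higher again at day 120, with 22.8 and 27.1 kb. TAFA1 had 15.6 and 13.3 kb at day 90 and 6.87 and 5.54 kb at day 60 (adjusted p = 0.0510). The others on the positive side were KIF6, a kinesin, at 1.24, IFIT2, an interferon-induced gene, at 1.51, WIPF1, an actin regulator, at 1.495, CCDC141, a centrosomal protein of migrating neurons, at 0.98, LTBP1, a TGF-β binding protein, at 0.80, FBXL7, a ubiquitin ligase subunit, at 1.10 and AGBL1, a tubulin-modifying enzyme, at 0.96. Their adjusted p-values lay between 0.0537 and 0.0711. WIPF1 was at −0.088 in lists of equal covered bases.

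On the negative side CHLSN had 11.3 and 11.6 kb at day 90 and 18.7 and 24.96 kb at day 60, a log2 difference of −0.88 (limma adjusted p = 0.0590). CKB, the brain creatine kinase, had 4.29 and 2.61 kb at day 90 and 6.73 and 7.82 kb at day 60 (difference −1.01). SEPTIN5, a septin of synaptic vesicles, had 2.60 and 2.19 kb at day 90 and 6.86 and 4.82 kb at day 60 (−1.12). In lists of equal number CKB had 3.16 and 1.56 kb at day 90 and 1.66 and 5.41 kb at day 60, which overlap, and its difference was 0.060 with equal covered bases and 0.33 with equal numbers of peaks and no day 60 replicate 2. The remaining differences were −1.01 for KIF24, a kinesin of centrioles, −0.99 for GRHL1, an epithelial transcription factor, −1.02 for the read-through gene RBM14-RBM4, −1.01 for MLPH, a melanosome carrier, −0.97 for B3GAT2, which builds the HNK-1 sugar, −0.78 for ALPL, a phosphatase, −0.78 for FAM204A, −1.10 for KLHL20, a ubiquitin ligase adaptor, and −0.68 for KCNQ1, a potassium channel. None of these 12 passed, and ALPL was at 0.038 among peaks with a −log10 q of at least 5.

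**Figure D4:**
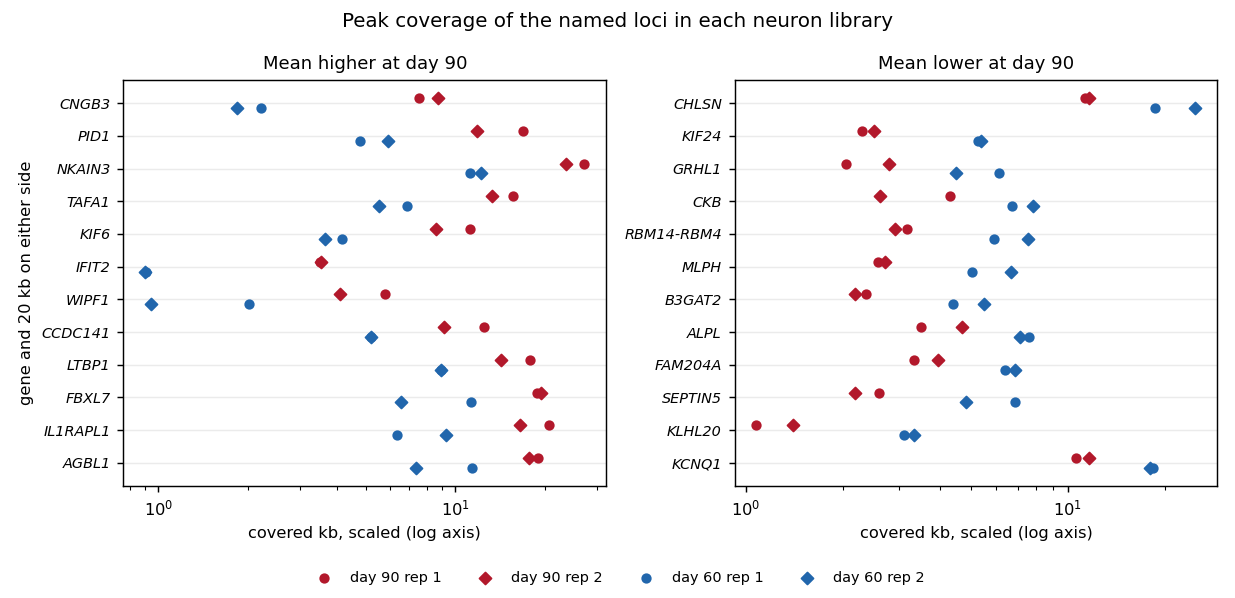
Scaled peak coverage (kb, log axis) of the named loci in the 2 day 90 libraries (red) and 2 day 60 libraries (blue) of neurons, with the 12 loci of higher mean at day 90 on the left and the 12 of lower mean on the right. By the rule of choice red and blue points do not overlap in any row, and only CNGB3, PID1 and NKAIN3 passed the adjusted threshold.

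Gene lists were read for their counts, their median difference and the share of their regions found at one day only. A region near several genes counts for each. Over all loci 4.603% of 162993 regions were day 90-only and 1.59% day 60-only. In all 33 lists no member passed the threshold in the full lists. Cut to equal length, IL1RAPL1 of the synaptic adhesion list passed as higher and SPI1 of the microglia list as lower.

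Synaptic adhesion, the genes whose proteins hold pre- and postsynaptic membranes together, had a day 90-only share above that of all loci. Of its 1116 regions, 111 were day 90-only (9.95%) and 20 were day 60-only (1.79%), and in lists of equal number the day 90-only share was 9.45% with 4.59% over all loci. The share was also above that of all loci with equal covered bases, at 7.87% against 3.47%, and without day 60 replicate 2, at 11.3% against 5.80%. In that last choice of lists it had 122 day 90-only and 125 day 60-only regions. Lists of other cell types had shares as high, with 8 of 80 mesenchymal and vascular regions and 14 of 166 posterior ones (8.43%) day 90-only. The median difference was 0.22 in the full lists and 0.08 without day 60 replicate 2, with 16 of 19 members above the median of all loci. PTPRD, a receptor phosphatase that binds synaptic partners, had 19 day 90-only and 2 day 60-only regions out of 152 and a difference of 0.44 ± 0.17. CNTNAP2, a neurexin relative, had 15 and 3 out of 158, NRXN3 14 and 3 out of 98, and NLGN1, a neuroligin, 9 and 2 out of 74.

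These are long genes, and length moved with the share over all loci. For genes over 500 kb, 314 in number, 8.39% of regions were day 90-only and 1.74% day 60-only. For genes of 200 to 500 kb the shares were 6.42 and 1.68%, for 50 to 200 kb 4.56 and 1.64%, and under 50 kb 2.97 and 1.49%. These shares are those of the full lists. In lists of equal number, genes over 500 kb had 8.53% day 90-only and 3.75% day 60-only regions, with 4.59 and 3.11% over all loci. With equal covered bases they had 6.99 and 5.93%, with 3.47 and 4.66% over all loci, so both shares of long genes were the higher ones. The median locus difference was 0.14 over 500 kb and −0.14 under 50 kb in the full lists. Among the loci richest in day 90-only regions outside the list were other long genes, here chosen after their values were seen. PRKG1, a cyclic GMP kinase, had 19 day 90-only and 2 day 60-only regions, PDE4D, a cyclic AMP phosphodiesterase, 16 and 1, NKAIN2 16 and 0, RBFOX1, a neuronal splicing factor, 15 and 1, MAGI2, a synaptic scaffold, 15 and 1, and DMD, the dystrophin gene, 12 and 0. None of these passed the locus test. The part of gene length in the value of the adhesion list was not tested.

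Receptor and channel lists gave values on both sides. For GABA-A receptors and chloride transporters, 14 of 167 regions were day 90-only (8.38%) and 1 was day 60-only (0.599%). GABRB1 had 20.6 and 22.1 kb at day 90 and 15.7 and 17.4 kb at day 60 (difference 0.36 ± 0.16), and GABRA3 had a difference of 0.41 ± 0.24. For AMPA and kainate receptors 19 of 296 were day 90-only (6.42%) and 4 day 60-only (1.35%). In lists of equal number these shares were 11.4 and 3.96%, and without day 60 replicate 2 they were 6.99 and 19.6%, with a median difference of −0.19 in place of 0.04. GRIA2, the subunit that limits calcium entry, had 13.4 and 9.88 kb at day 90 and 9.22 and 4.66 kb at day 60 (0.76 ± 0.30), and GRIA3 had 0.42 ± 0.16. For NMDA and metabotropic receptors the shares were 6.85 and 2.02%, with GRM5 at −0.60 ± 0.20 and GRM2 at −0.40 ± 0.24. With equal covered bases these shares turned to 3.31 and 9.27%, with 3.47 and 4.66% over all loci.

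Voltage-gated sodium and calcium channels had shares of 5.03 and 2.51%, with CACNA1E at −0.39 ± 0.15 and CACNA2D3 at 0.43 ± 0.17. Potassium and HCN channels had 5.67 and 1.48%, with KCNJ6 at 0.45 ± 0.23 (−0.23 with equal covered bases). In lists of equal number the potassium and HCN shares turned to 3.93 and 5.57%, with 4.59 and 3.11% over all loci. No member of these 5 lists passed in the full lists or in those of equal number.

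Presynaptic and postsynaptic machinery differed little from all loci in the median. Synaptic vesicle and release genes had a median of −0.02, with 18 of 276 regions day 90-only and 2 day 60-only. SNAP25, a fusion protein, was at 0.43 ± 0.24, but at −0.056 in lists of equal number, −0.041 with equal covered bases, −0.39 among strong peaks and −0.21 with equal numbers and no day 60 replicate 2. The difference was −0.65 ± 0.27 for SYT4, a vesicle calcium sensor, and 0.39 when peaks were counted in place of bases. Active zone genes had a median of −0.06 and shares of 7.37 and 1.92%, with PPFIA4 at −0.41 ± 0.23 and UNC13C, a vesicle-priming protein, at 0.30 ± 0.17. Postsynaptic scaffolds had a median of −0.06 and shares of 4.46 and 2.23%, with SHANK1 at −0.33 ± 0.20 and DLG3 at 0.22 ± 0.19. UNC13C turned to −0.0073 with equal numbers and no day 60 replicate 2, SHANK1 to 0.13 with equal covered bases, and DLG3 to −0.10 among strong peaks and −0.34 by number of peaks.

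Axon guidance genes had a median of 0.01 in the full lists and −0.27 without day 60 replicate 2, and 58 of their 757 regions were day 90-only (7.66%) with 12 day 60-only (1.59%). ROBO1, a receptor for Slit, had 48.5 and 40.7 kb at day 90 and 30.8 and 32.6 kb at day 60 (0.48 ± 0.19), with 10 and 0 regions of one day. EPHA7, an ephrin receptor, was at −0.36 ± 0.17. Newborn neuron and migration genes had a median of 0.11, with NHLH2, a transcription factor of newborn neurons, at −0.61 ± 0.22 and NRP1, a semaphorin receptor, at 0.42 ± 0.17. Pan-neuronal genes had a median of −0.02, with INA, a neurofilament protein, at −0.85 ± 0.25 and ELAVL4, an RNA-binding protein, at −0.41 ± 0.16 (0.060 among strong peaks).

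Layer markers were set beside each other because deep-layer neurons are born before upper-layer ones. Upper-layer genes had a median of 0.01 in the full lists, 0.08 in lists of equal length and −0.02 without day 60 replicate 2, with 12 of 273 regions day 90-only (4.40%) and 2 day 60-only (0.733%). The shares were 8.42 and 2.97% in lists of equal number, 8.14 and 1.74% with equal covered bases and 5.10 and 10.2% without day 60 replicate 2. RORB, a nuclear receptor of layer 4, had 9.77 and 7.15 kb at day 90 and 5.23 and 5.35 kb at day 60 (0.61 ± 0.19, limma adjusted p = 0.290). Its days did not overlap, and it did not pass. Deep-layer genes had a median of −0.02, 0.12 and −0.26 in the same 3 runs, with shares of 4.62 and 3.16% in the full lists. Their shares were 6.64 and 4.43% in lists of equal number and 4.74 and 3.88% with equal covered bases. All loci had 4.59 and 3.11% in the first of these and 3.47 and 4.66% in the second. BCL11B, a determinant of subcortical neurons, had 11.97 and 13.1 kb at day 90 and 17.9 and 15.5 kb at day 60 (−0.40 ± 0.17). Its difference was −0.14 in lists of equal length, 0.25 with equal covered bases and 1.36 among strong peaks. LDB2, a LIM cofactor, was at 0.28 ± 0.16.

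Genes of developmental timing stood apart less without the short library. Late temporal genes, among them the NFI factors, had a median of 0.20, with 10 of 10 members above the median of all loci, and early temporal genes had −0.22, with 4 of 10 above it. Without day 60 replicate 2 the medians were −0.01 and −0.13 against −0.04 for all loci. ZBTB20, a repressor of late cortical development, had 39.6 and 27.6 kb at day 90 and 23.4 and 21.3 kb at day 60 (0.56 ± 0.18), with 7 day 90-only and 0 day 60-only regions. ZEB2, a repressor in cortical development, was at 0.51 ± 0.19. On the early side IGF2BP2 was at −0.46 ± 0.21 (0.31 with equal covered bases) and HMGA2, a chromatin protein of young progenitors, at −0.40 ± 0.20.

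Activity-response genes had a median of −0.06, with SCG2, a neuropeptide precursor, at 6.09 and 4.77 kb at day 90 and 3.11 and 3.32 kb at day 60 (0.67 ± 0.19) and MEF2A at −0.43 ± 0.20 (0.41 with equal covered bases). Thyroid and other nuclear receptors had a median of 0.05, with RORA at 0.43 ± 0.15 beside RORB. Neuronal RNA-binding proteins had a median of 0.11 in the full lists, −0.01 in lists of equal length and −0.13 without day 60 replicate 2. NOVA1 had 6.40 and 8.33 kb at day 90 and 4.10 and 5.51 kb at day 60 (0.57 ± 0.21), and NOVA2 had 3.89 and 4.08 kb at day 90 and 7.30 and 5.99 kb at day 60 (−0.67 ± 0.25). NOVA2 was at 0.16 with equal covered bases and at 0.011 among strong peaks. Chromatin regulators of neurodevelopment had a median of −0.11, hypoxia and glycolysis genes −0.22 and housekeeping genes −0.15. Housekeeping loci summed to 57.6 and 53.0 kb at day 90 and to 57.4 and 71.9 kb at day 60, where the short library stood highest.

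**Figure D5:**
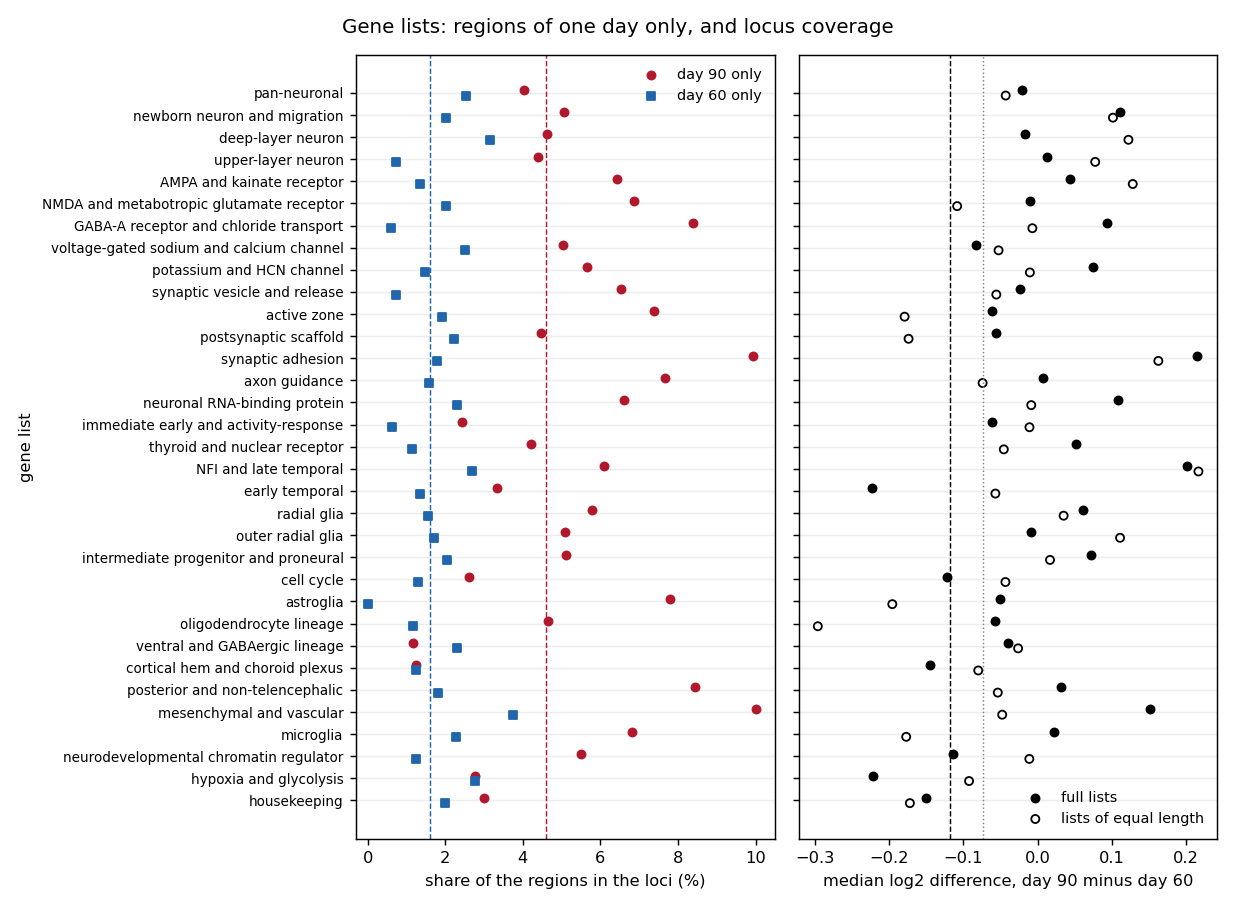
For the 33 gene lists (vertical axis), the share of regions in their loci that were day 90-only (red circles) or day 60-only (blue squares) on the left, and the median log2 difference of locus coverage, day 90 minus day 60, on the right (filled circles for full lists, open circles for lists of equal length). Broken and dotted lines give the values over all loci, and synaptic adhesion stands at 9.95% day 90-only with a median of 0.22.

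Markers of other cells moved with some of these values, and their part was not tested. Radial glia genes had a median of 0.06 with 14 of 18 members above that of all loci, and their summed scaled coverage was 159 and 159 kb at day 90 and 153 and 138 kb at day 60. TNC, a matrix protein of radial glia and outer radial glia, had 5.47 and 5.26 kb at day 90 and 2.65 and 2.997 kb at day 60 (0.82 ± 0.16, limma adjusted p = 0.0827), and FABP7 was at 0.42 ± 0.15. Outer radial glia genes had a median of −0.009 and summed to 71.3 and 60.4 kb at day 90 and 57.4 and 58.5 kb at day 60. PTN, a growth factor of that list, was at 0.73 ± 0.28. Intermediate progenitor genes had a median of 0.07, with PPP1R17 at 0.70 ± 0.22 and NEUROD4 at 0.64 ± 0.26 (−1.08 with equal covered bases). Their days did not overlap at 2 members with higher and 2 with lower values at day 90. The list summed to 73.0 and 66.0 kb at day 90 and 65.0 and 73.2 kb at day 60, which overlap.

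The sums of other cell types overlapped between days except for the oligodendrocyte and microglia lists. Cell cycle genes summed to 52.1 and 51.9 kb at day 90 and 51.5 and 61.4 kb at day 60. Astroglia genes summed to 41.5 and 34.3 kb at day 90 and 35.2 and 44.1 kb at day 60. Oligodendrocyte lineage genes summed to 30.9 and 31.8 kb at day 90 and 35.2 and 32.2 kb at day 60. Ventral and GABAergic genes summed to 142 and 118 kb at day 90 and 130 and 132 kb at day 60. Cortical hem and choroid plexus genes summed to 42.7 and 37.2 kb at day 90 and 38.7 and 43.3 kb at day 60. Posterior and non-telencephalic genes summed to 88.5 and 61.3 kb at day 90 and 75.5 and 63.6 kb at day 60, with the highest value in day 90 replicate 1. Mesenchymal and vascular genes summed to 31.2 and 29.1 kb at day 90 and 30.5 and 24.9 kb at day 60, and microglia genes to 12.4 and 12.1 kb at day 90 and 10.5 and 10.8 kb at day 60. No start among the 8 microglia genes held a peak in all 4 libraries, and 6 of the 8 held none in any.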

How the data were processed

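Broad-peak lists of 16 ATAC-seq libraries were used on hg38 chromosomes 1 to 22 and X. The submitters' processing notes name MACS2 2.1.2, SAMtools 1.9, Picard, BWA 0.7.17 and Trim Galore 0.5.0, and no settings were at hand. The deposited lists, 1 per library, give a display score, a fold enrichment (ratio) and −log10 p and q, all from the authors' peak caller. No list gives read counts, so depth is unknown. Lists were compared by peak presence, with an overlap of at least 1 base, and by covered bases, so a peak weaker than the caller's limit counts as absent.

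Regions are the merged peaks of the 4 neuron libraries of days 90 and 60. A gene start is the RefSeq start for 15812 of 19974 protein-coding genes, and either gene end for the rest. Locus coverage was fitted with limma 3.58.1 in R 4.3.3 on loci where 2 or more libraries covered 500 bases or more. The fit used all 16 libraries and 8 group means. Python 3.11.15, numpy 2.4.6, scipy 1.17.1 and pandas 2.3.3 did the rest. The code was tested on simulated data. Named loci all had at least 2000 mean covered bases, days that did not overlap and the same sign in lists of equal length. Called loci came first, and the places up to 12 a direction were filled by the smallest p. A locus whose window overlapped that of one already named was passed over. Of the neuron and progenitor lists the 2 members of smallest p were named, except some that are not reported here, and of the regions the 8 best ranked a direction. The members, the 33 lists (464 entries, all matched) and the rules were chosen with earlier results of these data known. Lists of equal length keep the peaks of highest −log10 p. Other alternatives changed scaling, pseudocount, filter, flank, peak strength, overlap, start window, block and libraries.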

Additional observations from a re-analysis of the deposited data

How the results depend on the processing

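The libraries used, day 60 replicate 2 among them, and the way list length was met moved most values. Read depth, which the lists do not give, limits them all. The limma counts of loci higher and lower at day 90, 4 and 0, became 44 and 28 with equal numbers of peaks, 97 and 82 with equal covered bases, 38 and 5 with peaks of −log10 q of at least 5, 9 and 1 with the total subtracted after the pseudocount, 12 and 1 with a pseudocount of 2000 and 12 and 2 with no filter. A pseudocount of 100 gave 2 higher loci, a flank of 5 kb gave 1 lower, and no scaling, the 4 neuron libraries alone and the number of peaks as the measure gave 0 higher. Leaving out 1 library gave 0 to 65 higher and 0 to 16 lower. An alternative chosen after seeing the data, equal numbers of peaks without day 60 replicate 2, gave 101 and 24. The interaction with progenitors, 0 higher and 0 lower, became 6 higher with equal numbers of peaks, 48 and 30 with equal covered bases and 51 and 1 in the alternative chosen later. The causes were not tested.

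Day 90-only regions numbered 12646 to 31775 and day 60-only regions 4771 to 24548 without 1 library. With equal covered bases they numbered 5351 and 5686, with strong peaks 663 were day 60-only, and in the alternative chosen later 20591 were. Day 90-only starts numbered 267 to 607 and day 60-only starts 114 to 279 without 1 library. Without day 60 replicate 1 they numbered 607 and 178, and without day 60 replicate 2 they numbered 283 and 279. They numbered 106 and 83 with equal numbers of peaks, 62 and 147 with equal covered bases, 463 and 7 with strong peaks and 311 and 242 in the alternative chosen later. The differences in covered sequence and in peaks, day 90 minus day 60, were 11.03 Mb and 12487. They lay between −3.26 and 25.3 Mb and between −5316 and 30289.5 peaks without 1 library, and were below 0 without day 60 replicate 2.

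Neuron libraries of the same replicate number did not deviate together across loci, and whether they shared a culture or batch was not tested. The 1 correlation that could be formed, of deviations between replicates 1 of days 90 and 60, was −0.0459 over 18755 loci, and the replicate block gave 8 higher and 0 lower loci.

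Of 66 named genes, 51 kept their sign in every alternative. For loci named by the rule the sign in lists of equal length was a condition of choice. All were picked by their values in these libraries, so the count describes them and is no separate support. With equal covered bases the log2 difference turned for WIPF1 (−0.088), CKB (0.060), BCL11B (0.25), KCNJ6 (−0.23), SNAP25 (−0.041), SHANK1 (0.13), NOVA2 (0.16), MEF2A (0.41), IGF2BP2 (0.31) and NEUROD4 (−1.08). With strong peaks it turned for ALPL (0.038), ELAVL4 (0.060), BCL11B (1.36), SNAP25 (−0.39), DLG3 (−0.10) and NOVA2 (0.011), and with the number of peaks for SYT4 (0.39) and DLG3 (−0.34). It turned for SNAP25 (−0.056) with equal numbers of peaks, and for CKB (0.33), SNAP25 (−0.21) and UNC13C (−0.0073) in the alternative chosen later.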
